A study of Drosophila melanogaster with 3 samples.

Results

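The Notch pathway in the larval lymph gland was followed through 10 of its core genes, namely the receptor N, the ligands Ser and Dl, the processing enzymes kuz and fng, the ubiquitin ligases neur and mib1, the nuclear factors Su(H) and H, and the inhibitor numb. They were chosen by symbol for their known place in the pathway, with earlier results of these data known. All 10 were found among the 17490 genes of the count tables. All 10 were also among the 9056 genes with at least 1 CPM (counts per 1000000 counts of the library) in at least 1 library, which are called the tested genes here, although no statistical test was possible.

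The lymph gland is the organ in which Drosophila larvae make blood cells. Bulk RNA sequencing was done on whole, undissociated glands of Oregon-R, a wild-type strain, kept in steady state (no wasp infestation), at 72, 96 and 120 h after egg laying (AEL), with 1 library of pooled glands at each time. The dissection was meant to keep the primary lobes and to leave out the posterior lobes and the adjoining ring gland and dorsal vessel. The comparisons are therefore between 3 libraries and not between stages, no value has a replicate error, and the 3 comparisons share these libraries. In such bulk samples, fewer cells of a type and less RNA per cell cannot be told apart.

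Notch is a receptor at the cell surface that is activated by ligands on neighbouring cells. A ligand that is ubiquitinated and taken up by the sending cell pulls on the receptor, which is then cut outside the membrane by the metalloprotease encoded by kuz and inside it by gamma-secretase, so that the intracellular part enters the nucleus and turns the repressor complex of Su(H) and Hairless into an activator of target genes such as the E(spl) genes. In the lymph gland, Serrate-to-Notch signalling is known for the specification of crystal cells, the blood cells that carry prophenoloxidase, through the transcription factor gene lz.

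Total counts were between 34278733 and 49511614 per library, and the level that 3 counts can show was between 0.0579 and 0.0905 CPM after scaling by TMM factors (trimmed mean of M-values), which are used for every level below. Where 3 values follow each other, they belong to 72, 96 and 120 h AEL in that order. The 5 crystal cell markers (lz, PPO1, PPO2, peb and Men) summed to 1376, 14530 and 17980 scaled CPM. The defining gene lz had 28, 701 and 736 counts, and PPO1 and PPO2 had 190.8 and 480.2 scaled CPM at 72 h AEL against 5868 and 7468 at 96 h AEL. By a 4-fold rule, lz, PPO1, PPO2, peb and the plasmatocyte genes NimC1 and eater were called higher at 120 against 72 h AEL. The summed markers of prohemocytes (17860 to 20020 scaled CPM, led by Tep4) and of plasmatocytes (12650 to 27020, led by Hml) were abundant at every time, and those of the posterior signaling center, with Antp among them, summed to between 189.3 and 258.7. Among the prohemocyte markers, Tep4 was lower in each later library (12240, 10740 and 10240) and Ance higher (5575, 7043 and 9720). The rest were low, dome with 63.1, 43.3 and 45.0 scaled CPM and shg with 36.2, 24.8 and 17.3. The summed markers of neurons, muscle, the ring gland and imaginal discs were highest at 72 h AEL. The 7 neuron markers summed to 110.4, 13.65 and 10.59 scaled CPM, with brp at 0 counts at 96 h AEL and nSyb at 1505, 16 and 7 counts, and 6 of the 7 (nSyb, brp, Syt1, Rdl, para and futsch) were called lower at 120 against 72 h AEL. The 6 dorsal vessel and muscle markers summed to 2304, 165.6 and 117.4, and Mlc1, Mlc2, Mhc and up were called lower. The 7 ring gland markers summed to 779, 336 and 182.6, and phm, dib, sad, spok and Akh were called lower, whereas sro went the other way, with 11.8, 37.0 and 52.2 scaled CPM, and was called higher. The 5 imaginal disc markers summed to 8.57, 2.35 and 4.62, without a common order, since vg had 42, 0 and 37 counts, nub 52, 0 and 64, hh 38, 34 and 14, wg 198, 42 and 38, and eyg 114, 12 and 0. The sum of the 3 glia markers (76.9, 80.3 and 113.3) was mostly nrv2, while repo had 154, 10 and 5 counts and moody 360, 115 and 140, both lower in the later libraries than at 72 h AEL, as the neuron markers were. The sum of the 3 lamellocyte markers (680.5, 1087 and 1181) was mostly cher, beside atilla with 342, 140 and 258 counts and ItgaPS4 with 0, 227 and 368, called higher. The part of these tissues in the values below was not tested.

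Levels of different genes are given as scaled CPM per kilobase of exon. Differences between libraries are given as log2 ratios of scaled CPM after adding 1 CPM, so that differences of low genes are understated, and as folds of the scaled counts without that addition. Each fold carries a 95% interval for counting error only, computed on halved counts, because between 69.6% and 72.0% of the counts from 1 to 20 were even, as when both mates of a read pair are counted. A gene is called when its log2 ratio is at least 2 in size, which is 4-fold. Coordinates are those of the Ensembl annotation of BDGP6.54.

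Between 72 and 96 h AEL, 8 of the 10 genes were higher and 2 were lower. The genes kuz, Ser and N were more than 2-fold higher, and fng was more than 2-fold lower. From 96 to 120 h AEL the log2 ratio was smaller in size for every gene but Dl, and fng and Dl were lower again. Thus the receptor, its protease and 1 of its ligands were at a higher level in the later libraries, and the other ligand and the glycosyltransferase at a lower one.

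By the 4-fold rule, 0 of the 10 genes were called between 72 and 96 h AEL, where 1.2% of all tested genes were called higher and 8.62% lower. Again 0 of 10 were called between 96 and 120 h AEL, against 0.188% of all tested genes higher and 0.0663% lower. Between 72 and 120 h AEL 1 gene, fng, was called lower and 0 were called higher, against 9.68% and 2.11% of all tested genes. The 1 of 10 is close to the background share. At 2-fold, 3 genes were called higher (kuz, Ser and N) and 1 lower (fng) at 96 against 72 h AEL, where 4.76% and 19.5% of tested genes were. At 120 against 96 h AEL, 0 were called in either direction, with 1.47% and 1.12% of tested genes called. At 120 against 72 h AEL, 2 were called higher (kuz and N) and 2 lower (fng and Dl), against 7.39% and 20.7%. The 3 of 10 and the 2 of 10 called higher are shares above the background, and of those called lower at 2-fold, the 1 of 10 is under it and the 2 of 10 is close to it. These shares only describe 10 genes that were chosen with earlier results of these data known, and they are no test of the set. The median log2 ratio of the 10 genes was 0.46, -0.03 and 0.52 in the 3 comparisons, and that of all tested genes was -0.02, 0.0 and -0.04.

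**Figure D1:**
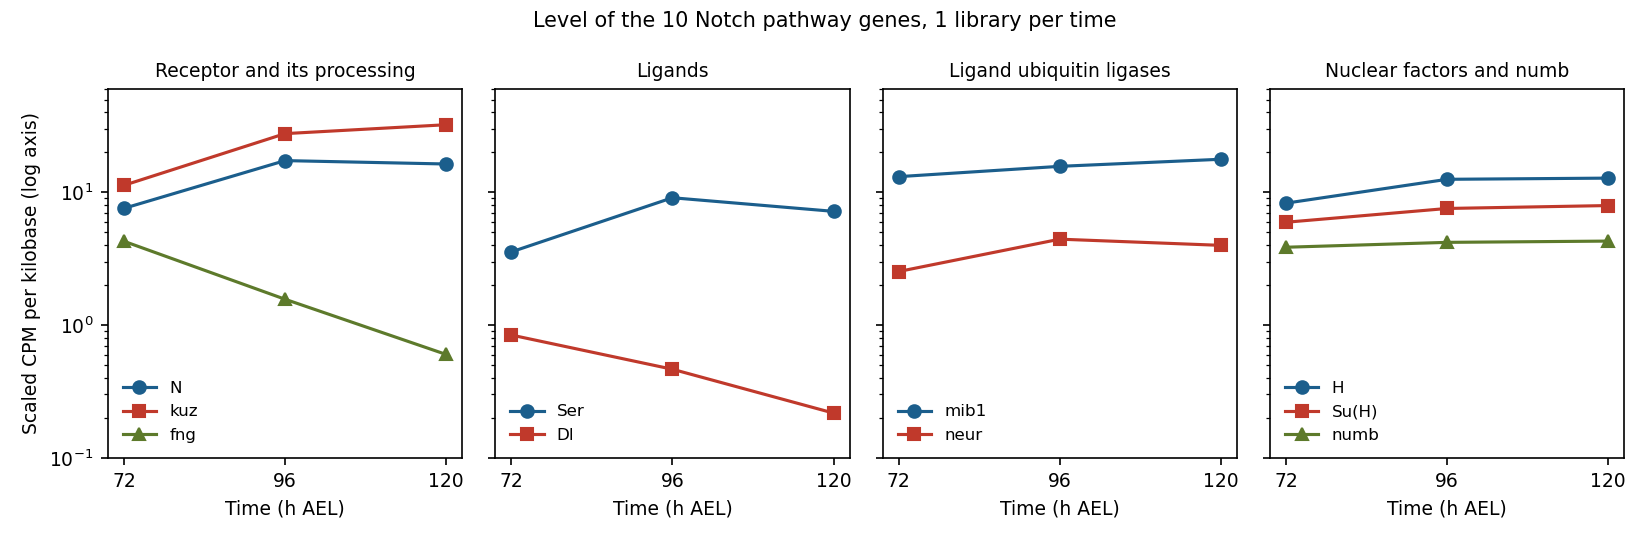
Level of the 10 genes in scaled CPM per kilobase of exon (log axis) against time in h AEL, in 4 panels by role, with 1 point per library and no error bars since each time has 1 library. N goes from 7.57 to 17.33 and 16.34 and kuz from 11.29 to 27.67 and 32.29, while fng goes down from 4.28 to 0.601 and Dl from 0.842 to 0.217.

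The receptor gene N (FBgn0004647, chromosome X, 3134870 to 3172221, plus strand, 10150 exon bases) had 3979, 6596 and 5497 counts. In scaled CPM these were 76.8, 175.9 and 165.9. The library at 72 h AEL was the low one and the other two lay close together. N was 2.29-fold higher in the 96 h library than in the 72 h one (2.16 to 2.42, log2 ratio 1.18), which put it above 96.6% of the tested genes. It was 1.06-fold lower in the 120 h library than in the 96 h one (1.01 to 1.12, log2 ratio -0.08), and 2.16-fold higher in the 120 h library than in the 72 h one (2.04 to 2.29, log2 ratio 1.1). Scaling by total counts moved the last log2 ratio to 0.99, just under 2-fold.

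The gene kuz, which encodes the ADAM metalloprotease Kuzbanian that makes the extracellular cut of ligand-bound Notch (FBgn0259984, chromosome 2L, 13550139 to 13639411, plus strand), had 4151, 7369 and 7598 counts. Its scaled CPM were 80.2, 196.5 and 229.3, higher in each later library. It was 2.45-fold higher in the 96 h library than in the 72 h one (2.32 to 2.59, log2 ratio 1.28) and a further 1.17-fold higher at 120 h AEL (1.11 to 1.22, log2 ratio 0.22). Across the whole period it was 2.86-fold higher (2.71 to 3.02, log2 ratio 1.51), the largest increase among the 10 genes. Per kilobase of exon, kuz stood at 1.49 times the level of N at 72 h AEL, 1.6 times at 96 h AEL and 1.98 times at 120 h AEL.

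The gene fng encodes Fringe, a glycosyltransferase of the Golgi that extends sugars on the Notch extracellular domain and thereby favours activation by Delta over Serrate (FBgn0011591, chromosome 3L, 20925891 to 20949512, minus strand). It had 434, 115 and 39 counts, or 8.38, 3.07 and 1.18 scaled CPM, so each library was lower than the one before. It was 2.73-fold lower in the 96 h library than in the 72 h one (2.04 to 3.72, log2 ratio -1.21) and 2.61-fold lower in the 120 h library than in the 96 h one (1.54 to 4.61, log2 ratio -0.90). In this second step only 1.5% of the tested genes had a lower log2 ratio. Over the whole period fng was 7.12-fold lower (4.48 to 12.0), with a log2 ratio of -2.11, just past the 4-fold call, and the next member below the call was Dl at -1.34. With a pseudocount of 5 CPM its log2 ratio was -1.12 and it was not called. The ratio of N to fng per kilobase of exon was 1.77 (1.54 to 2.05), 11.1 (8.53 to 14.6) and then 27.2 (17.5 to 44.9).

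**Figure D2:**
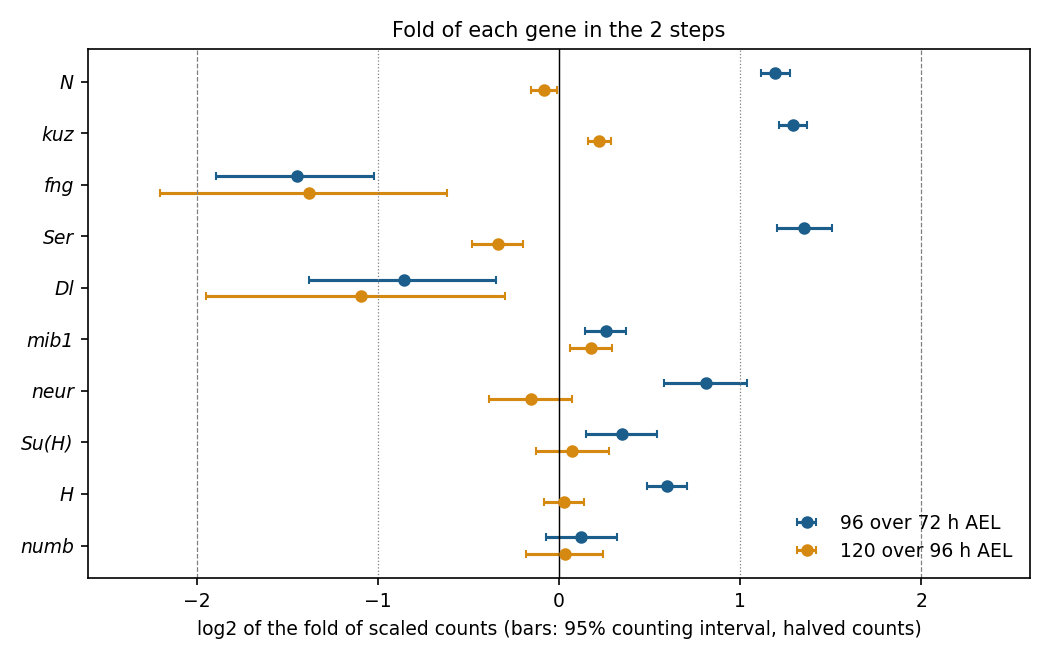
Fold of each of the 10 genes on a log2 axis for the 96 over 72 h AEL step (blue) and the 120 over 96 h AEL step (orange), with bars for the 95% counting interval on halved counts and vertical lines at 2-fold (dotted) and 4-fold (dashed). N, kuz and Ser lie beyond 2-fold higher in the first step (2.29, 2.45 and 2.56) and near 1 in the second, whereas fng and Dl lie on the lower side in both.

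The ligands were on opposite courses. Ser encodes Serrate, the ligand known for crystal cell specification in this organ (FBgn0004197, chromosome 3R, 27172090 to 27194267, minus strand). It had 1074, 1990 and 1389 counts, or 20.7, 53.1 and 41.9 scaled CPM, with its highest value at 96 h AEL. It was 2.56-fold higher in the 96 h library than in the 72 h one (2.3 to 2.85, log2 ratio 1.31), the largest increase of any of the 10 genes in that step. It was then 1.27-fold lower in the 120 h library than in the 96 h one (1.15 to 1.4, log2 ratio -0.33), a log2 ratio with 8.43% of the tested genes below it. At 120 h AEL it was still 2.02-fold above its level at 72 h AEL (1.8 to 2.27, log2 ratio 0.98).

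Dl encodes Delta, the other Notch ligand of the fly (FBgn0000463, chromosome 3R, 19302731 to 19326217, minus strand). It had 230, 92 and 38 counts, or 4.44, 2.45 and 1.15 scaled CPM. The order of the 3 libraries was the same as for fng, and these were the only 2 of the 10 genes with a lower scaled value in each later library. Dl was 1.81-fold lower in the 96 h library than in the 72 h one (1.28 to 2.61, log2 ratio -0.66), 2.14-fold lower in the 120 h library than in the 96 h one (1.23 to 3.87, log2 ratio -0.69), and 3.87-fold lower over the whole period (2.37 to 6.67, log2 ratio -1.34). In the second step 2.41% of the tested genes had a lower log2 ratio. The interval of the whole-period fold includes 4-fold. The summed neuron, muscle and ring gland markers given above were also lower in each later library, as fng and Dl were. So were the prohemocyte markers Tep4 and shg and the posterior signaling center marker chrb, but not the other markers of those lists. The part of any of these cells in the values of fng and Dl was not tested.

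Per kilobase of exon, Ser exceeded Dl in all 3 libraries. The ratio of Ser to Dl was 4.23 (3.45 to 5.22), 19.6 (14.6 to 26.9) and then 33.1 (21.0 to 55.3). The interval at 72 h AEL lies apart from the other two, which overlap each other. The ratio of N to Ser stayed between 1.9 and 2.27 in the 3 libraries, while that of N to Dl went from 9.0 to 37.3 and 75.2.

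The ubiquitin ligases that act on ligands in the sending cell followed. The gene mib1 (Mind bomb 1, FBgn0263601, chromosome 3L, 16006552 to 16011812, minus strand) had 2782, 2409 and 2407 counts, or 53.7, 64.2 and 72.6 scaled CPM. The increase was small in both steps, 1.2-fold (1.11 to 1.29, log2 ratio 0.25) and 1.13-fold (1.04 to 1.23, log2 ratio 0.17), and 1.35-fold over the period (1.25 to 1.46, log2 ratio 0.43). The gene neur (Neuralized, FBgn0002932, chromosome 3R, 9020348 to 9039471, minus strand) had 565, 717 and 569 counts, or 10.9, 19.1 and 17.2 scaled CPM. It was 1.75-fold higher in the 96 h library than in the 72 h one (1.5 to 2.06, log2 ratio 0.76) and did not differ beyond counting error between 96 and 120 h AEL (0.898-fold, 0.766 to 1.05, log2 ratio -0.15). At 120 h AEL it was 1.57-fold above 72 h AEL (1.33 to 1.86, log2 ratio 0.61).

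Per kilobase of exon, mib1 was above neur by a factor of 5.18 (4.56 to 5.91), 3.54 (3.14 to 3.99) and then 4.45 (3.91 to 5.08). The level of neur is less certain than the others, because 38.8% of its exon bases, 1673 in number, are shared with an antisense gene on the other strand, asRNA:CR31429, which had 0, 1 and 0 counts. Whether the counting used strand is not stated, and reads in the shared stretch may have been dropped. As an alternative chosen after seeing the data, all counts of neur were divided by its 2636 unshared bases. This assumes that every read in the shared stretch was dropped, and mib1 would then exceed neur by 3.17, 2.16 and 2.72. For mib1, kuz and fng, between 22 and 48 exon bases are shared with another gene.

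In the nucleus, Su(H) encodes the DNA-binding protein that recruits either activators or repressors to Notch targets (FBgn0004837, chromosome 2L, 15039488 to 15043334, plus strand). It had 909, 836 and 777 counts, or 17.5, 22.3 and 23.5 scaled CPM. It was 1.27-fold higher in the 96 h library than in the 72 h one (1.11 to 1.45, log2 ratio 0.33), and the 1.05-fold difference between 96 and 120 h AEL had an interval from 0.914 to 1.21 (log2 ratio 0.07). H encodes Hairless, the adaptor that binds Su(H) to corepressors (FBgn0001169, chromosome 3R, 20621938 to 20628915, plus strand). It had 2576, 2822 and 2544 counts, or 49.7, 75.2 and 76.8 scaled CPM. Its first step was larger, 1.51-fold (1.4 to 1.63, log2 ratio 0.59), and its second was 1.02-fold (0.945 to 1.1, log2 ratio 0.03, which is -0.004 when scaled by total counts). Both genes thus had their low library at 72 h AEL and nearly equal values at 96 and 120 h AEL. Between 72 and 120 h AEL, Su(H) was 1.34-fold higher (1.16 to 1.53, log2 ratio 0.4) and H was 1.54-fold higher (1.43 to 1.67, log2 ratio 0.62). The ratio of H to Su(H) per kilobase of exon was 1.39 (1.25 to 1.55), 1.66 (1.49 to 1.85) and then 1.61 (1.44 to 1.81), and these intervals overlap.

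The gene numb encodes a membrane-associated adaptor that is inherited unequally at some cell divisions and inhibits Notch in the cell that receives it (FBgn0002973, chromosome 2L, 9437469 to 9464184, plus strand). It had 982, 774 and 699 counts, or 19.0, 20.6 and 21.1 scaled CPM. Of the 10 genes it had the log2 ratios smallest in size over the first step and over the whole period, 0.12 and 0.15. Its folds were 1.09 (0.95 to 1.25), 1.02 (0.882 to 1.18) and, for 120 against 72 h AEL, 1.11 (0.967 to 1.28), so numb was the only gene of the 10 for which all 3 intervals included 1. The ratio of N to numb per kilobase of exon was 1.96 (1.78 to 2.17), 4.13 (3.71 to 4.6) and then 3.81 (3.41 to 4.27).

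The order of the 10 genes by level per kilobase was led by mib1 (13.1), kuz (11.3) and H (8.29) at 72 h AEL, by kuz (27.7), N (17.3) and mib1 (15.7) at 96 h AEL, and by kuz (32.3), mib1 (17.7) and N (16.3) at 120 h AEL. Dl was last in all 3 libraries, at 0.842, 0.465 and 0.217, and fng was 6th at 72 h AEL and 9th in the later libraries. Levels ranged from the 10.3rd percentile of the tested genes with a known length (Dl at 72 h AEL) to the 77.1st (kuz at 120 h AEL). Together the 10 genes made up 0.0357%, 0.0625% and 0.0629% of the library totals. How far neighbours in this order differ beyond the spread between libraries of 1 time is unknown.

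Genes known to respond to Notch were then described, from a list of 16: 12 genes of the E(spl) complex (chromosome 3R, 25997621 to 26041008, within 43.4 kb) and 4 genes of the Brd complex (chromosome 3L, 14945499 to 14976040, within 30.5 kb). The 7 E(spl) bHLH genes encode repressors of transcription, and most of the others encode small proteins of the Bearded family, which inhibit Neuralized. Of the 16 genes 12 were tested. The gene E(spl)mbeta-HLH was higher in the later libraries, and most of the others were lower at 120 than at 72 h AEL.

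E(spl)mbeta-HLH (FBgn0002733, chromosome 3R, 26005046 to 26006023, minus strand, a gene of a single exon) had 284, 874 and 956 counts, or 5.48, 23.3 and 28.9 scaled CPM. The library at 72 h AEL was the low one, as for N, kuz and Ser. It was 4.25-fold higher in the 96 h library than in the 72 h one (3.51 to 5.17, log2 ratio 1.91) and 5.26-fold higher in the 120 h library than in the 72 h one (4.35 to 6.39, log2 ratio 2.2), which was called. Of the counts of the 7 bHLH genes, it took 45.8% (Wilson 95% interval on halved counts 40.3% to 51.4%), 77.2% (73.6% to 80.5%) and then 92.6% (90.1% to 94.6%).

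The other 6 bHLH genes together had 336, 258 and 76 counts, which is 6.49, 6.88 and 2.29 scaled CPM. Their sum was thus about level between 72 and 96 h AEL and lower at 120 h AEL. Of these, E(spl)m3-HLH had 146, 94 and 54 counts, E(spl)mgamma-HLH 98, 72 and 10, and E(spl)m8-HLH 52, 38 and 6. E(spl)mgamma-HLH was 6.36-fold lower in the 120 h library than in the 96 h one (2.49 to 20.8). E(spl)mdelta-HLH had 8, 40 and 2 counts, E(spl)m7-HLH 24, 14 and 4, and E(spl)m5-HLH 8, 0 and 0.

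Among the remaining targets, Tom and Kaz-m1 were called lower at 120 than at 72 h AEL. Tom, a Bearded-family gene, had 348, 136 and 10 counts, a 22.3-fold lower level in the last library than in the first (9.36 to 69.5, log2 ratio -2.57). Kaz-m1, the gene of the E(spl) complex also named E(spl)m1 (FBgn0002578), which encodes a protease inhibitor-like protein, had 265, 14 and 10 counts, a 17.0-fold lower level by the same comparison (7.09 to 53.1, log2 ratio -2.23). In Kaz-m1, 57.0% of the exon bases are shared with a noncoding gene on the same strand that had 0 counts in every library. A different order was seen for E(spl)malpha-BFM, with 6, 59 and 20 counts, E(spl)m4-BFM, with 50, 88 and 8, and Brd, with 74, 80 and 4, all of which had their highest value at 96 h AEL. E(spl)m2-BFM had 92, 28 and 10 counts, Ocho 66, 8 and 0, E(spl)m6-BFM 16, 0 and 0, and BobA 3, 0 and 0.

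Over the 12 tested targets, 0 were called higher and 1 lower (Kaz-m1) at 96 against 72 h AEL, 0 in either direction at 120 against 96 h AEL, and 1 higher and 2 lower at 120 against 72 h AEL. Of all tested genes 1.2% and 8.62% were called higher and lower in the first comparison, so that 1 of 12 is close to the background, and 2.11% and 9.68% in the last. Their median log2 ratio was 0.01, -0.73 and -0.93, beside -0.02, 0.0 and -0.04 for all tested genes. With a pseudocount of 0.1 CPM 1 target was called higher and 6 lower at 120 against 72 h AEL, and with one of 5 CPM 0 were called. The number of calls among these low genes thus depends on the pseudocount. The shares of all tested genes called under these pseudocounts are not given here. The level of E(spl)mbeta-HLH and the summed markers of crystal cells, plasmatocytes, lamellocytes and glia were all higher in the later libraries than at 72 h AEL. The lamellocyte sum was mostly cher and the glia sum mostly nrv2. Whether E(spl)mbeta-HLH comes from any of these cell types cannot be told in bulk RNA.

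**Figure D3:**
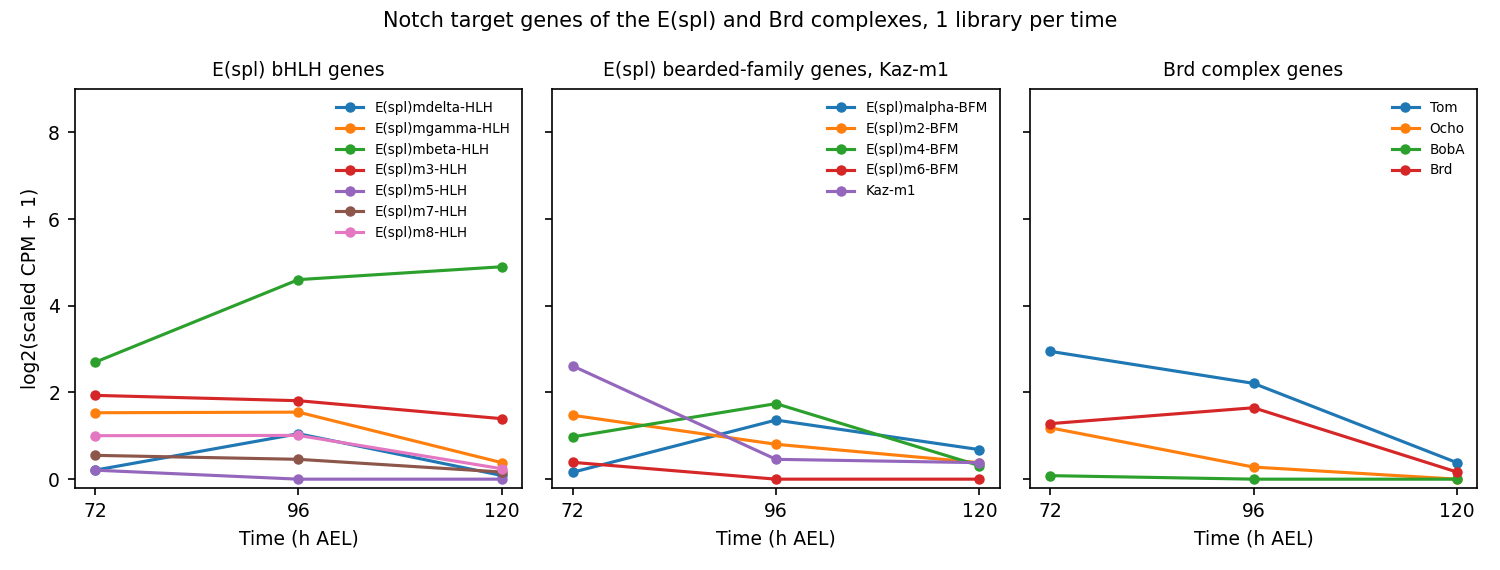
Level of the 16 Notch target genes as log2 of scaled CPM plus 1 against time in h AEL, 1 point per library, with the 7 E(spl) bHLH genes on the left, the other E(spl) genes in the middle and the Brd complex genes on the right. E(spl)mbeta-HLH goes up from 5.48 to 28.9 scaled CPM, whereas Tom, with 6.72 scaled CPM at 72 h AEL, is at 0.302 at 120 h AEL.

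Of 54 other components of the pathway, in 6 lists, 53 were tested. Of these, 0 were called higher and 4 lower (uif, wry, mira and pros) at 96 against 72 h AEL, 0 in either direction at 120 against 96 h AEL, and 0 higher and 3 lower (uif, wry and mira) at 120 against 72 h AEL. With 8.62% and 9.68% of all tested genes called lower in the first and the last comparison, these numbers are not above the background. Their median log2 ratio between 72 and 120 h AEL was 0.43, close to the 0.52 of the 10 genes above.

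All 4 gamma-secretase subunits, which make the cut within the membrane, had a higher value in each later library, with none called. Psn, the catalytic subunit presenilin, had 111.2, 123.4 and 138.4 scaled CPM and was 1.25-fold higher in the 120 h library than in the 72 h one (1.18 to 1.32). The gene nct (nicastrin) had 61.5, 103.3 and 111.6 scaled CPM, pen-2 had 6.99, 10.8 and 13.4, and aph-1 had 25.0, 28.1 and 35.2. The largest of the 4 folds between 72 and 120 h AEL was that of pen-2, 1.92 (1.57 to 2.35).

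The list of ligand uptake and signal sending, which holds mib2 and components of clathrin-mediated endocytosis, was higher at 96 than at 72 h AEL in 7 of 7 genes, with a median log2 ratio of 0.54. In that list aux (auxilin, which acts in the uncoating of clathrin vesicles) had the largest log2 ratio between 72 and 120 h AEL, with 102.3, 169.1 and 207.7 scaled CPM and a 2.03-fold difference (1.93 to 2.14). Of the nuclear partners of Su(H) and H, 10 of 11 stood higher at 120 than 72 h AEL, with a median log2 ratio of 0.45. The gene mam (Mastermind, the coactivator that binds Notch and Su(H)) led them, with 2743, 3728 and 4396 counts and a 2.5-fold higher value at 120 than at 72 h AEL (2.34 to 2.68, log2 ratio 1.31). Its log2 ratio was above the 0.4 of Su(H) and the 0.62 of H, a difference without a replicate check.

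The 7 tested genes of receptor glycosylation and maturation, such as O-fut1, which adds the fucose that Fringe extends, had log2 ratios between -0.54 and 0.31 at 120 against 72 h AEL. O-fut1 had 4120, 3315 and 2417 counts and a log2 ratio of -0.12, beside -2.11 for fng. The gene frc of that list was listed at 0 counts in every library and was not tested.

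The list of receptor cleavage and traffic was split, with 7 genes higher and 7 lower at 120 than at 72 h AEL. The 2 called genes were uif and wry. The gene uif (uninflatable, a membrane protein of epithelia with EGF repeats) had 3068, 370 and 130 counts, a 15.1-fold lower level in the last library than in the first (11.8 to 19.7, log2 ratio -3.61), and wry (weary, an EGF-repeat protein related to Notch ligands) had 322, 0 and 0 counts, so that its last value was at least 68.7-fold lower than its first if 0 is set to the floor of 3 deposited counts per library, which leaves out counting error, while the lower limit of its interval on halved counts was 27.6-fold. Lower as well, but not called, were crb, with 785, 210 and 103 counts, Kul, an ADAM protease gene related to kuz, with 599, 165 and 79, spdo, with 244, 79 and 42, and Tace, another metalloprotease gene, with 121, 2 and 0. The ubiquitin ligase genes Su(dx), dx and Nedd4, which act on the receptor, had log2 ratios of 0.64, 0.58 and 0.43. The summed neuron, muscle and ring gland markers were also lower in the later libraries. So were the summed posterior signaling center markers and the prohemocyte markers Tep4, dome and shg, but not Ance. The part of any of these cells in the values of uif, wry, crb, Kul, spdo and Tace was not tested.

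**Figure D4:**
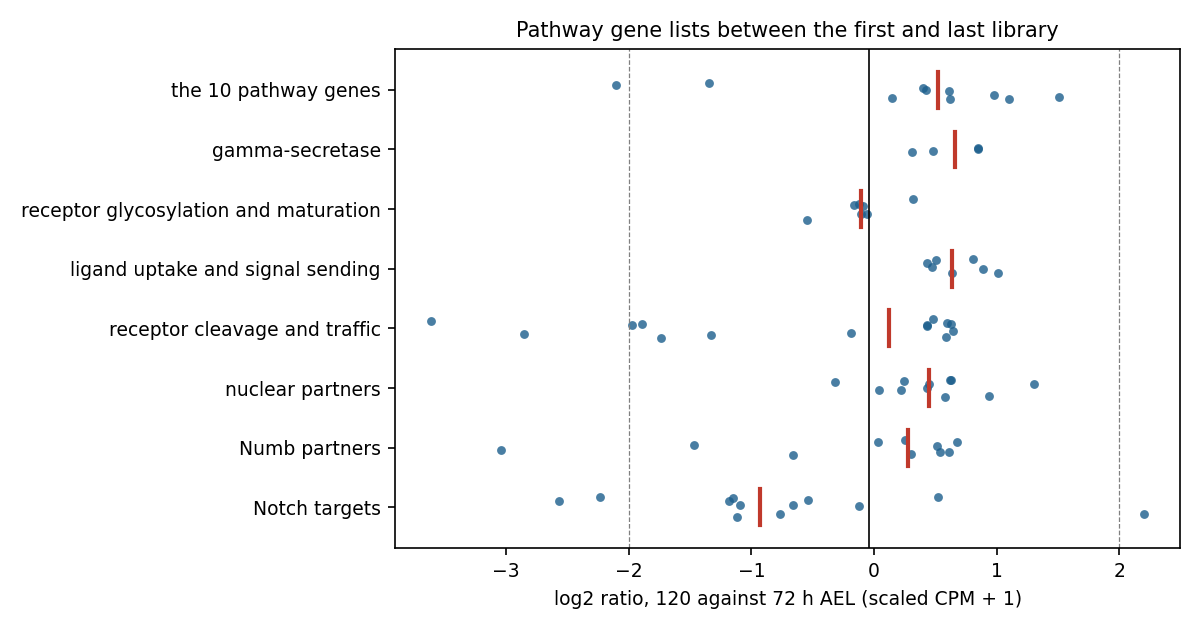
Log2 ratio of each tested gene (dots) at 120 against 72 h AEL, by list, with the list's median as a red bar, the median of all tested genes as a black line and the 4-fold limits as dashed lines. The medians of the gamma-secretase and ligand uptake lists, 0.66 and 0.64, lie to the right of the all-gene median of -0.04, and that of the Notch targets, -0.93, lies to its left.

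Finally, the genes closest to N, Dl and Ser in the pair of step log2 ratios were looked up among 6032 to 6033 other genes with a mean of at least 10 CPM. The measure was the Euclidean distance between the log2 ratios of the 2 steps, so it rests on 3 libraries. The nearest to N were Thd1, a thymine DNA glycosylase gene, at 0.0376 (log2 ratios 1.17 and -0.12), and hdc (headcase) at 0.0412 (1.16 and -0.05). The nearest to Dl were CG11158 at 0.054 (-0.64 and -0.64) and the homeobox gene hth at 0.0579 (-0.63 and -0.63). Dl itself, at 4.44, 2.45 and 1.15 scaled CPM, is below the 10 CPM limit. The added 1 CPM therefore reduces its log2 ratios more than those of the genes compared. With a pseudocount of 0.1 CPM they were -0.83 and -1.03, so the genes found near Dl rest on the pseudocount. The nearest to Ser were CG11236 at 0.0971 (1.32 and -0.24) and PlexB, a plexin receptor gene, at 0.144 (1.2 and -0.24). Within a distance of 0.1 there were 15 genes for N, 4 for Dl and 1 for Ser.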

How the data were processed

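The authors deposited raw counts per gene, whole numbers without normalization, for 1 library at each of 3 times. The submitters' processing notes name FastQC 0.11.8, STAR 2.5.3a, featureCounts 1.6.0 and BDGP6, without the settings for strand or read pairs. Of 17490 gene identifiers, 17216 were in the Ensembl release 115 annotation (BDGP6.54), which gave exon lengths and coordinates. TMM factors from edgeR 4.0.16 in R 4.3.3, computed on the 9056 tested genes, were between 0.967 and 1.05. With 1 library per time there was no test and no p-value. Intervals of folds are exact (Clopper-Pearson), and they cover only counting error, since reads copied by PCR are not independent molecules. The floor of 3 counts is a set value that leaves out counting error.

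The text names all 10 genes, the targets and gamma-secretase subunits, each listed gene called at 4-fold, a set of marker genes and the 2 genes nearest to N, Dl and Ser. The remaining genes named (lower or higher genes of the component and marker lists) were picked once their values had been seen. All lists and the 10 genes were chosen with earlier results of these data known. The functions were tested on simulated data. Alternatives were total-count scaling, DESeq2 1.42.0 size factors, a pseudocount of 0.1 or 5 CPM, no filter or one of 10 CPM, a 2-fold call, thinned counts, deposited counts for the intervals, and the longest transcript as length. The remaining steps ran in Python 3.11.15 with pandas 2.3.3, SciPy 1.17.1, NumPy 2.4.6 and Matplotlib 3.10.9.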

Additional observations from a re-analysis of the deposited data

How the results depend on the processing

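Of 234 recomputed log2 ratios of the 10 genes, 2 had another sign (H and numb at 120 against 96 h AEL under total-count scaling, -0.004 and -0.001). In 228 the shift from the main log2 ratio was within the width of the counting interval on that side, in log2 units. In 6 it was beyond that width. Whether the recomputed value itself lay inside the interval was not asked. The 234 include the other filters and the 2-fold call, which cannot change a log2 ratio, so the 228 overstates how stable the ratios are. The number of the 10 genes called at 96 against 72 h AEL was 0, and 4 at 2-fold. At 120 against 72 h AEL it was 1, against 0 under a 5 CPM pseudocount, 0 with a 10 CPM filter (which drops fng) and 4 at 2-fold. Called targets at 96 against 72 h AEL numbered 1, against 5 under a 0.1 CPM pseudocount, 0 with 5 CPM, 0 with the 10 CPM filter (1 target left) and 3 at 2-fold. At 120 against 96 h AEL they numbered 0, against 5 under a 0.1 CPM pseudocount and 4 at 2-fold. At 120 against 72 h AEL they numbered 3, against 7 under a 0.1 CPM pseudocount, 0 with 5 CPM, 1 with the 10 CPM filter and 7 at 2-fold. Called other components numbered 4, 0 and 3 in the 3 comparisons, 8, 1 and 10 at 2-fold, 1 under a 5 CPM pseudocount in the first and the last, and 6 with 0.1 CPM in the last. Size factors of DESeq2, thinned counts and no filter kept every one of these counts within 1.5 times. Total-count scaling did so too, but it moved the median of all tested genes to -0.15 at 120 against 72 h AEL. Of the calls at 2-fold in the 3 comparisons, 2, 0 and 1 were higher among targets, and 1, 0 and 2 among components. Of all tested genes, 4.76%, 1.47% and 7.39% were called higher at 2-fold, and 19.5%, 1.12% and 20.7% lower. Under the other pseudocounts and the 10 CPM filter, the share of all tested genes called is not given here. With the longest transcript as length, 28 of 30 ranks were the same, with fng and numb exchanged at 72 h AEL. With all its counts divided by its unshared bases, neur was 7th in all 3 libraries, in place of 9th, 7th and 8th. Deposited counts gave intervals narrower by a median factor of 1.42. No paired analysis was possible because each time has 1 library and its replicate number is only a name. Depth limits Dl, fng and most targets, with under 100 counts in the last library.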

Other observations

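The 10 genes that act with numb in asymmetric division were also looked at. Those that polarise epithelia and dividing cells alike had positive log2 ratios at 120 against 72 h AEL, namely 0.54 for par-6, 0.25 for aPKC, 0.62 for baz, 0.52 for pins and 0.68 for l(2)gl, none of them called. The genes mira (Miranda, the adaptor that carries fate determinants in neural stem cells) and pros (Prospero, one such determinant, a homeodomain transcription factor) were lower. The gene mira had 608, 18 and 18 counts, a 24.5-fold lower value in the 96 h library than in the 72 h one (95% counting interval 12.7 to 54.0), with a log2 ratio of -3.11. The gene pros had 636, 85 and 126 counts, a 5.42-fold lower value (3.93 to 7.65), with a log2 ratio of -2.02. Both were called at 96 against 72 h AEL, where 8.62% of all tested genes were called lower. The gene pon (partner of numb) had 2145, 1237 and 858 counts, a log2 ratio of -0.66 at 120 against 72 h AEL. The remaining genes of the list, brat and aurA, had log2 ratios of 0.3 and 0.04 in that comparison. The neuron markers summed to 110.4, 13.65 and 10.59 scaled CPM, and their part in the values of mira and pros was not tested.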
